A study of Homo sapiens with 16 samples.

Results

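Homologous recombination and the Fanconi anaemia pathway were followed through 42 genes, chosen by name from 58676 gene identifiers in the count files. The list was drawn up from gene function, by a rule that uses no measured value, although earlier results of these data were known when it was chosen. It covers the BRCA complexes (5 genes), the mediators, paralogs and motors of strand exchange (9), the Fanconi core complex with its E2 enzyme (8), the clamp that the core complex ubiquitylates (2), end resection (5), dissolution and structure-selective nucleases (6), the checkpoint kinases with their partners (6) and theta-mediated end joining (1). All 42 passed the filter on low counts in both cell lines, so every gene of the list was tested in every comparison.

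Homologous recombination repairs broken or stalled DNA by copying the sister chromatid. It runs mainly in S and G2 phase, when a sister is present. The broken end is first trimmed to single strands, the BRCA proteins then load the recombinase on it, helicases and nucleases finally separate the joined molecules, and the kinases ATM and ATR signal the damage. The Fanconi pathway prepares crosslinked DNA for this repair: its core complex attaches ubiquitin to FANCD2 and FANCI. Many of these genes are transcribed at the start of S phase under E2F factors, which RB restrains until cyclin-dependent kinases inactivate it.

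A pair of human tumour lines was profiled by RNA sequencing, A549 from a lung cancer and SUM159 from a triple-negative breast cancer. Cells of each line were untreated (UT) or received for 16 h either 2 µM palbociclib (PD), an inhibitor of CDK4 and CDK6, or 3 µM indisulam (IN), which causes loss of the splicing factor RBM39, or both drugs (P+I). Each of the 8 groups has 2 libraries, so 16 in all. Each line is a single tumour line, grown in its own medium, at 1 dose and 1 time. The design calls the duplicates technical, so p-values measure only the spread between these samples, and 2 libraries against 2 cannot pass the threshold in an exact test of a single gene. The tests below are therefore those of edgeR, which shares the spread across genes.

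Gene counts per library ran from 18306636 to 34075588, and 3 counts correspond to 0.0880 to 0.164 per 1000000 gene counts before any scaling. CPM below are counts per 1000000 gene counts on library sizes adjusted by TMM, edgeR's scaling. The 8 markers fixed for A549 summed to 28670 to 29390 CPM in untreated A549 and to 1408 to 1430 in untreated SUM159, whereas the 5 markers fixed for SUM159 summed to 1622 to 1631 and to 6184 to 6299. ESR1 and PGR were under 1 CPM in all libraries of both lines. ERBB2, also listed as low in SUM159, was at 98.39 to 145.4 CPM there and at 105.8 to 137.9 in A549, so these receptors did not separate the lines. Markers of blood, endothelium and fibroblasts summed to at most 6.003 CPM in A549 but to 745.7 to 909.0 CPM in SUM159, where 4 of the 9 reached 1 CPM. RBM39 mRNA rose with indisulam, by 1.06 (A549) and 1.09 (SUM159) on the log2 scale. Of the 42 genes, 33 overlap another annotated gene, 17 of them on the same strand, so part of their counts is uncertain.

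The start regions of these genes were searched for the letters of 3 promoter elements, as background for the palbociclib response. The windows span 250 bases before to 50 after each RefSeq start (GRCh38.p14), and 38 of the 42 genes matched with 52 windows; RMI2, RAD54B, NBN and FANCI did not. An exact E2F string (TTTGGCGC, TTTCCCGC, TTTCGCGC or TTTGCCGC, either strand) was found in 7 of the 52 windows (13.5%), those of EXO1, FANCD2, TOPBP1, XRCC2, RMI1, FANCC and FANCA, and in 3.31% of the 35116 windows of all genes. The cell cycle homology region (TTTGAA or TTCGAA) was in 13.5% of the windows of these genes and 16.4% of all windows, and CCAAT was in 46.2% and 34.6%. These are descriptions of letters, with no test, and a match does not show a bound site. None of the E2F strings contains the letters of the other motifs.

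Below are 5 stretches that hold such a string, in capitals, and the start of ATR, a gene whose palbociclib value did not pass the test and whose window holds none. Windows without such a string also belong to genes that fell with palbociclib in A549, such as RAD51AP1 (-1.94) and BRIP1 (-1.78, log2). The 5 printed holders changed there by -1.48 (FANCD2), -1.14 (TOPBP1), -0.93 (RMI1), -0.81 (FANCC) and -1.77 (FANCA). Whether the string goes with the change was not tested. Each stretch is 100 bases, 5′ to 3′ on the gene's strand, and covers the 90 bases before the start and the first 10 transcribed bases, except FANCA, where it covers bases -200 to -101. In FANCD2 the string lies from base -2 to 6 around the start (chr3:10026347-10026446, plus strand), in TOPBP1 from -7 to 1 (chr3:133661932-133662031, minus strand), in RMI1, at the second of its listed starts, from -32 to -25 (chr9:83980715-83980814, plus strand), in FANCC from -46 to -39 (chr9:95317700-95317799, minus strand) and in FANCA from -172 to -165 (chr16:89816748-89816847, minus strand). The ATR stretch is chr3:142578724-142578823, minus strand.
FANCD2: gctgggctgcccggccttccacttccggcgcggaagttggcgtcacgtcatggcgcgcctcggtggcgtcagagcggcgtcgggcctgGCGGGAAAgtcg
TOPBP1: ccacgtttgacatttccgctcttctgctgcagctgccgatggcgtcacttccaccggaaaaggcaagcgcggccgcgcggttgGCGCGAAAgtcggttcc
RMI1: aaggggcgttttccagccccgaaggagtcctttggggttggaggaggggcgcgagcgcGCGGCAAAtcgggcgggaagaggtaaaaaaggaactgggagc
FANCC: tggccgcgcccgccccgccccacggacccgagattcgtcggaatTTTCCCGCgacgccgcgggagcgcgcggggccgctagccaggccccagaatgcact
FANCA: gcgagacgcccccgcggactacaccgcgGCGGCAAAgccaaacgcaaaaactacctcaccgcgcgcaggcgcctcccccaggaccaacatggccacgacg
ATR: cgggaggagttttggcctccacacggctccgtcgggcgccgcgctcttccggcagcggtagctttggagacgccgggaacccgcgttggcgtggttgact

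In untreated cells the 42 genes spanned a wide range of levels. Per kilobase of transcript, UBE2T, the E2 enzyme that hands ubiquitin to the Fanconi core complex, was the highest in both lines, at 66.2 and 65.1 CPM per kb in A549 and at 60.4 and 61.3 in SUM159. FANCI followed in A549 at 54.6 and 54.4 CPM per kb, and RBBP8, which starts end resection, followed in SUM159 at 39.5 in both libraries. The lowest was RAD50, a subunit of the MRN complex, at 1.01 and 1.08 CPM per kb in A549 and 1.25 and 1.32 in SUM159, with an overlapping annotated gene on its strand. BRCA2 and RAD51D were also near the lower end, at 2.13 and 2.06 CPM per kb (means) in A549. RAD51D was at 20.6 CPM there before division by a transcript of 9966 bases. On the same strand, 1 annotated gene overlaps BRCA2 and 2 overlap RAD51D.

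Between the untreated lines, 17 of the 42 genes were higher in SUM159 and 17 were lower, among 38.3% higher and 38% lower of the 17764 genes tested. RMI2, a subunit of the dissolution complex, was at 45.7 and 43.6 CPM in A549 and at 11.04 and 11.4 in SUM159, a log2 difference of -2.12. FANCE, a core complex subunit, was at 10.0 and 8.23 CPM in A549 and at 21.3 and 24.1 in SUM159, a log2 difference of 1.18. These log2 differences come from 1 fit of all 16 libraries, whereas the CPM are scaled within each line, so they do not match exactly. With scaling by total counts the split was 21 higher and 13 lower.

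Palbociclib lowered nearly the whole list in both lines. In A549 38 genes fell and none rose, with a median log2 change of -1.02, against 0.03 over all 15744 genes, of which 21.1% fell and 22% rose. In SUM159 37 fell and 1 rose, with a median of -0.81 against 0.02 over all 16080 genes, of which 29% fell and 25.5% rose. At least 2-fold lower were 21 genes in A549 and 11 in SUM159, and 2.78% and 2.10% of all genes reached that size. The 36 genes that fell in both lines are 94.7% of those that fell in A549 and 97.3% of those that fell in SUM159. With 38 and 37 of 42 genes lower, a large overlap follows from the counts alone. The overlap over all genes was not computed. With scaling by total counts the share of all called genes that rose was 62.4% in A549 (51.1% with TMM) and 62.5% in SUM159 (46.8%), while 35 of the 42 genes still fell in each line.

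Markers of cycling cells moved with the list. The 14 S-phase markers summed to 2560 to 2598 CPM in untreated A549 and 934.2 to 942.6 with palbociclib, and to 3125 to 3158 and 1096 to 1134 in SUM159. The 12 markers of G2 and mitosis summed to 3195 to 3382 CPM untreated and 648.3 to 658.6 with palbociclib in A549, and to 3195 to 3324 and 1035 to 1040 in SUM159. In these bulk samples, fewer cells in S and G2 phase and less RNA per cell cannot be told apart, and the part that cell cycle position has in the changes below was not tested.

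All 5 genes of the BRCA complexes fell with palbociclib in each line. BRCA1, the ubiquitin ligase that directs breaks to recombination, was at 119.6 and 132 CPM in untreated A549 and at 42.8 and 42.02 with palbociclib, and at 155 and 163 against 64.5 and 64.7 in SUM159. Its log2 changes were -1.57 ± 0.06 (SE) and -1.30 ± 0.04. BRCA2, which loads the recombinase, went from 24.0 and 27.1 CPM to 10.2 and 8.87 in A549, and from 43.9 and 43.1 to 21.1 and 23.8 in SUM159. The groups did not overlap in either line, and the log2 changes were -1.43 ± 0.09 and -0.95 ± 0.06. BARD1, the partner of BRCA1, and BRIP1, a helicase bound by BRCA1, changed by -1.69 and -1.78 in A549 and by -1.55 and -1.52 in SUM159. PALB2, which bridges BRCA1 and BRCA2, moved least, by -0.43 and -0.36.

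Among the strand-exchange genes 8 of 9 fell in A549 and 7 of 9 in SUM159. RAD51AP1, which helps the recombinase pair DNA, was at 44.03 and 43.3 CPM in untreated A549 and at 11.9 and 10.99 with palbociclib, the largest fall of the list in that line, at -1.94 ± 0.07. In SUM159 it went from 43.4 and 41.7 CPM to 13.3 and 13.03, a change of -1.69 ± 0.08. The recombinase paralogs differed among themselves: XRCC2 and XRCC3 changed by -1.34 and -1.36 in A549, RAD51C by -0.88 and RAD51D by -0.40. RAD54L, a motor protein that drives strand exchange, changed by -1.75 in A549 and -1.26 in SUM159. HELQ, a helicase, had log2 values of 0.08 and 0.09 that did not pass the test in either line.

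The Fanconi genes fell in all 8 core members and both clamp subunits, in each line. FANCA went from 69.9 and 75.5 CPM in untreated A549 to 21.0 and 21.5, a change of -1.77 ± 0.07, and from 51.2 and 52.7 to 21.6 and 22.1 in SUM159, a change of -1.25. FANCD2 went from 92.1 and 102 CPM to 35.4 and 34.3 in A549 and from 76.9 and 80.5 to 34.8 and 32.5 in SUM159, with log2 changes of -1.48 ± 0.06 and -1.23 ± 0.05. FANCM, the translocase that carries the core complex to DNA, and FANCL, its ubiquitin ligase, moved least in A549, at -0.61 and -0.53. So the subunits of 1 complex did not fall equally, with a range from -1.77 to -0.53 in A549.

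Of the resection genes, EXO1, the long-range exonuclease, fell far more than the others. It was at 62.3 and 64.0 CPM in untreated A549 and at 17.9 and 17.1 with palbociclib, and at 69.2 in both untreated SUM159 libraries against 21.5 and 20.6. Its log2 changes were -1.85 ± 0.06 and -1.72 ± 0.06, the latter the largest fall of the list in SUM159. The MRN subunits, which bind the break first, changed little: MRE11 by -0.44 and -0.51, NBN by -0.14 and -0.39, and RAD50 by -0.02 in A549, which did not pass the test, and -0.34 in SUM159. RBBP8 changed by -0.66 and -0.46.

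All 6 dissolution and nuclease genes fell in each line. BLM, the helicase of the dissolution complex, changed by -1.59 in A549 and -1.33 in SUM159, and MUS81, a nuclease subunit, by -0.21 and -0.18. EME1, the partner of MUS81, was at 31.3 and 30.8 CPM in untreated A549 and 14.1 and 12.2 with palbociclib, but at 24.5 and 23.0 against 17.5 and 17.4 in SUM159. POLQ, the polymerase of theta-mediated end joining, changed by -1.67 ± 0.08 in A549 and by -0.95 ± 0.07 in SUM159.

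The kinases at the top of the checkpoint did not follow the rest. ATR was at 73.1 and 84.3 CPM in untreated A549 and 77.5 and 75.6 with palbociclib, with values inside the untreated range and a log2 value of -0.04 ± 0.06 (adjusted p = 0.646, edgeR's quasi-likelihood test). In SUM159 it was at 102 and 104 CPM against 97.6 and 101, with a log2 value of -0.06 ± 0.05 (adjusted p = 0.300). ATM was at 38.0 and 48.2 CPM against 45.2 and 42.9 in A549, at 0.03 ± 0.09. In SUM159 ATM rose from 54.7 and 65.5 CPM to 66.3 and 77.4, a log2 change of 0.26 ± 0.07, the only rise of the list, and without untreated replicate 1 or palbociclib replicate 2 the value was 0.14 in each case and no longer passed (adjusted p = 0.164 and 0.122, edgeR). CHEK1, the kinase that ATR activates, did fall, from 66.9 and 65.6 CPM to 36.4 and 36.8 in A549 (-0.86 ± 0.05) and from 84.7 and 83.1 to 49.2 and 45.3 in SUM159 (-0.83 ± 0.05). TOPBP1, an activator of ATR, changed by -1.14 and -0.88, whereas CHEK2, a target of ATM, changed by -0.22 in A549 and had a value of -0.01 in SUM159 that did not pass.

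**Figure D1:**
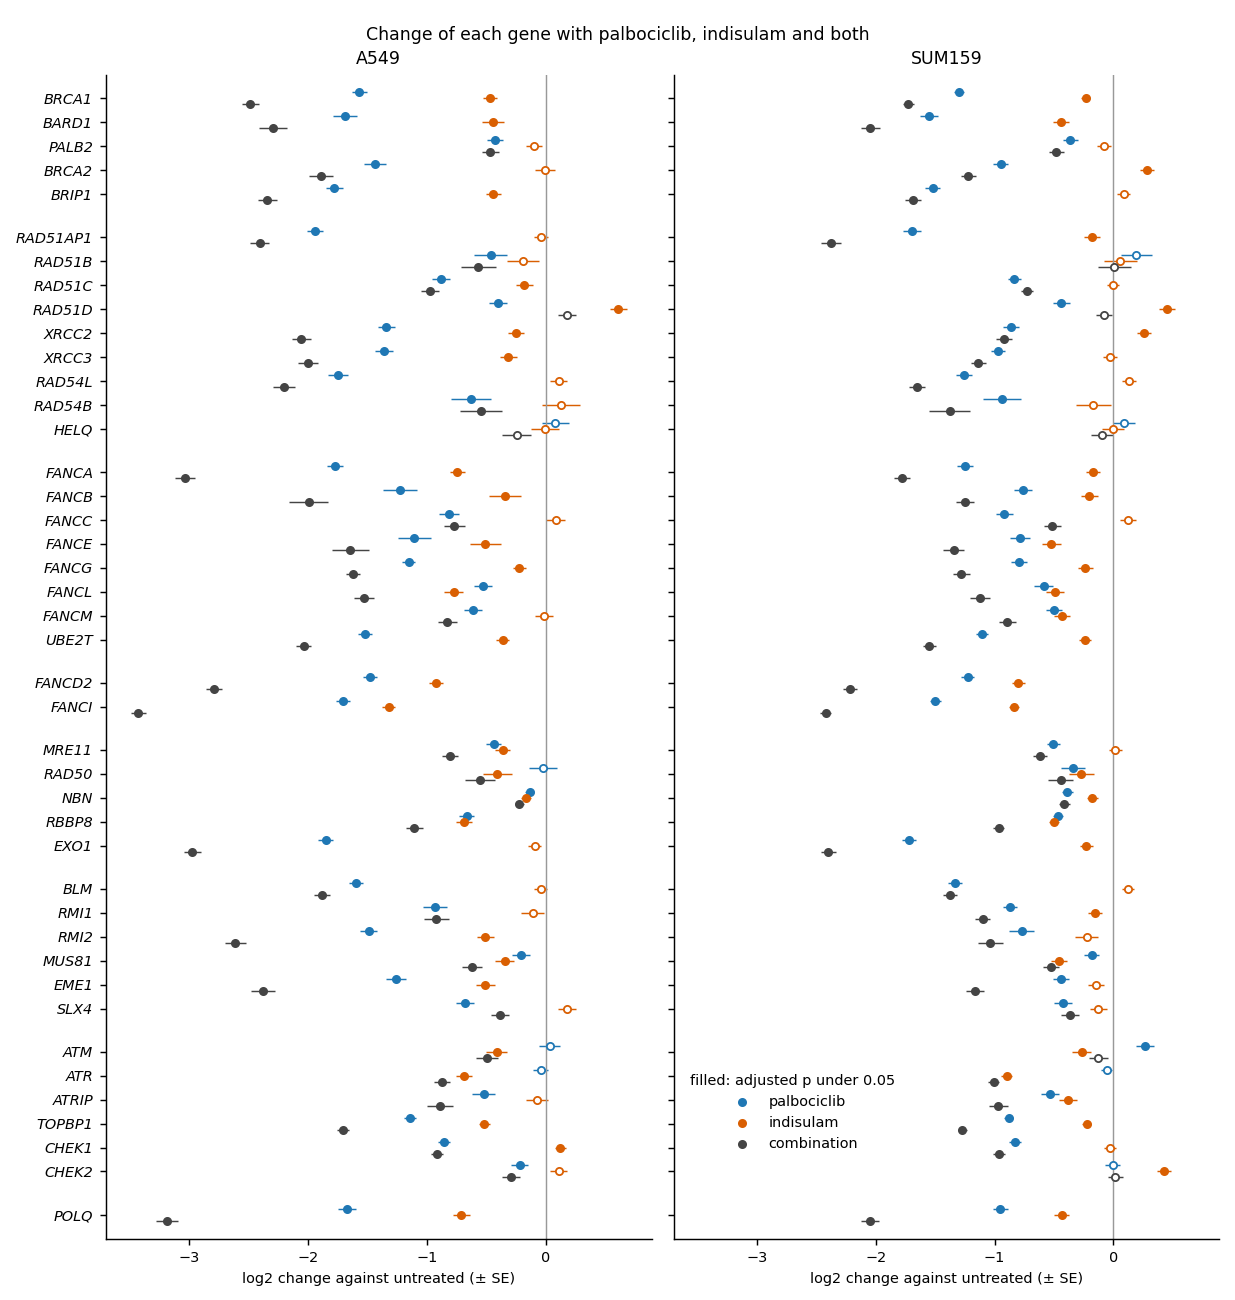
Log2 change of each of the 42 genes (rows, grouped by role) against untreated cells on the x axis, with palbociclib in blue, indisulam in orange and the combination in grey; bars are SE, filled points have an adjusted p under 0.05 and open points do not. Blue and grey points lie left of 0 for most genes in both lines, ATR and HELQ have open palbociclib points near 0 in each line, and the orange point of RAD51D lies right of 0 in each line.

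Indisulam moved fewer of these genes and by less. In A549 25 fell and 2 rose, with a median log2 change of -0.28 against 0.01 over all genes, of which 25.9% fell and 23.3% rose. In SUM159 23 fell and 4 rose, with a median of -0.18 against 0.01, where 24.9% of all genes fell and 21.9% rose. The 18 genes that fell in both lines are 72% of those in A549 and 78.3% of those in SUM159. Here, too, the overlap over all genes was not computed. Scaling by total counts gave 18 lower and 7 higher in SUM159 and raised the share of rises among all calls there from 46.8% to 57.9%. The S-phase markers summed to 2086 to 2113 CPM in A549 and 2562 to 2563 in SUM159, below the untreated libraries; their part in these changes was not tested.

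The 2 subunits of the ubiquitylated clamp fell together with indisulam. FANCI (chr15:89243945-89317261, GRCh38) was at 258 CPM in both untreated A549 libraries and at 98.4 and 108 with indisulam, a change of -1.32 ± 0.06 and the only one of the list to reach 2-fold with this drug. In SUM159 it went from 162 and 168 CPM to 90.9 and 93.9, a change of -0.83 ± 0.04. Among all genes, 5.02% in A549 and 1.87% in SUM159 were called at least 2-fold lower with indisulam. FANCD2 (chr3:10026370-10101932) went from 92.1 and 102 CPM to 49.6 and 52.5 in A549 and from 76.9 and 80.5 to 44.8 and 45.6 in SUM159, with log2 changes of -0.92 ± 0.06 and -0.80 ± 0.05. In the core complex 6 of 8 genes fell in A549 and 7 of 8 in SUM159. FANCL and FANCA had the lowest values in A549, at -0.78 and -0.74, and FANCE the lowest in SUM159, at -0.53.

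ATR (chr3:142449007-142578733), which did not pass with palbociclib, fell with indisulam. It went from 73.1 and 84.3 CPM to 47.9 and 49.7 in A549, a log2 change of -0.69 ± 0.07. In SUM159 it went from 102 and 104 CPM to 58.0 and 53.0, a log2 change of -0.90 ± 0.05, the lowest value of the list. The treated libraries lay below every untreated one in both lines. ATM fell in A549 (-0.41, at 31.4 and 33.2 CPM when treated). In SUM159 (50.05 and 49.8 CPM) its value was -0.27, which did not pass without untreated replicate 2 (-0.13, adjusted p = 0.233, edgeR) or indisulam replicate 2 (-0.26, adjusted p = 0.0609).

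RAD51D (chr17:35092221-35121522), a recombinase paralog, rose with indisulam in both lines. It was at 20.0 and 21.1 CPM in untreated A549 and at 31.1 and 31.7 with indisulam, a change of 0.61 ± 0.07. In SUM159 it went from 28.6 and 32.5 CPM to 41.0 and 42.6, a change of 0.45 ± 0.07. On the same strand 2 further annotated genes overlap RAD51D, and 1 does on the other strand. Gene counts do not separate spliced from retained sequence. The other rises were found in 1 line each. In SUM159 CHEK2 changed by 0.43, BRCA2 by 0.28 and XRCC2 by 0.26. In A549 CHEK1 was at 66.9 and 65.6 CPM untreated and 71.6 and 72.8 with indisulam, a change of 0.12 ± 0.05 with an adjusted p of 0.0478 by edgeR, which failed when any 1 of these 4 libraries was left out (adjusted p from 0.0996 to 0.172).

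BRCA2 in A549 had an indisulam value of -0.01 ± 0.08, with 25.2 and 25.5 CPM inside the untreated range. BRCA1 fell in both lines, to 88.0 and 94.2 CPM in A549 and to 136 and 134 in SUM159, with log2 changes of -0.46 ± 0.06 and -0.24 ± 0.04. CHEK1 in SUM159 was at 81.5 and 82.8 CPM, with a value of -0.03 ± 0.05 that did not pass. Across the 42 genes, Spearman's rho between the indisulam change and exon number was -0.29 in A549 and -0.28 in SUM159 (-0.18 and -0.14 across all coding genes), that with gene span -0.24 and -0.035, and that with transcript length -0.034 and 0.0035. These are descriptions across genes of the same libraries, not tests.

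**Figure D2:**
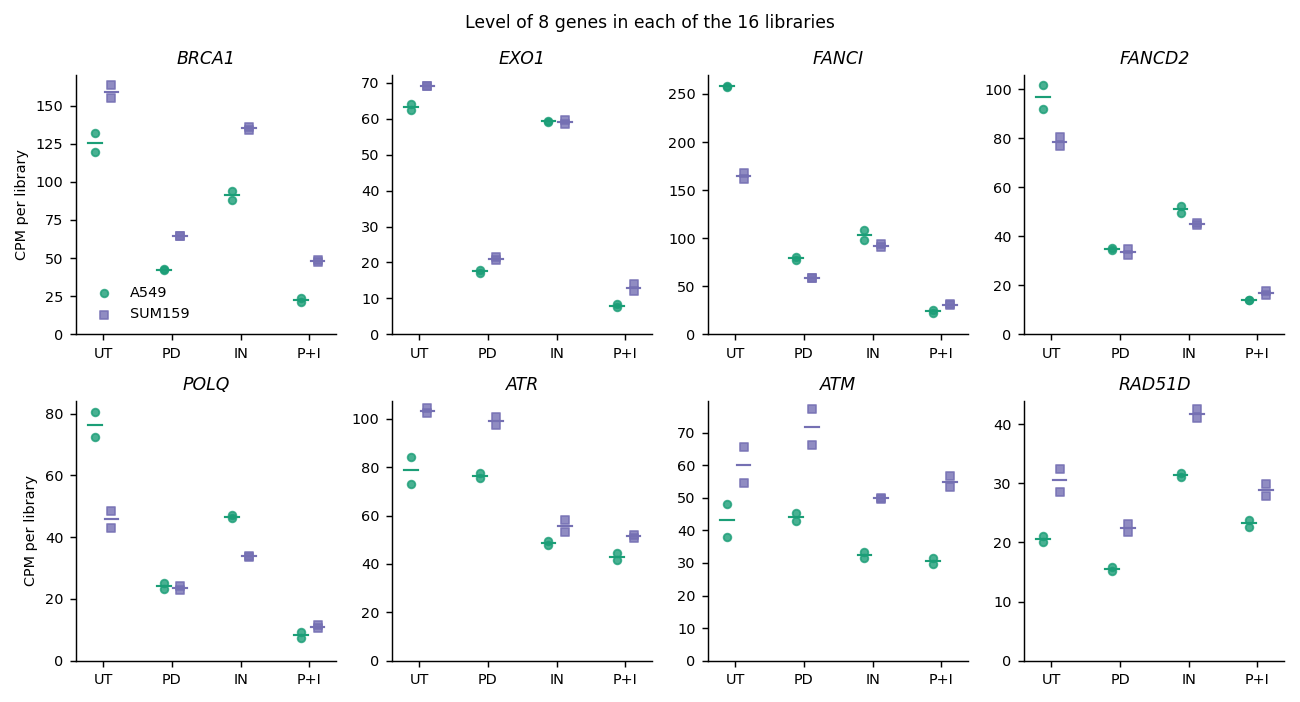
CPM of 8 genes in each of the 16 libraries (y axis, from 0) by treatment (x axis: untreated UT, palbociclib PD, indisulam IN, combination P+I), with A549 as green circles, SUM159 as purple squares and short lines at the group means. FANCI and FANCD2 are lower with each drug and lowest with both, ATR is lowest in the groups given indisulam, and RAD51D is highest with indisulam alone.

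With both drugs 40 of the 42 genes fell in A549 and 37 in SUM159, and none rose. The median log2 changes were -1.58 and -1.11, against 0.00 and 0.01 over all genes, of which 30.4% fell and 27.4% rose in A549, and 33.1% fell and 32.2% rose in SUM159. At least 4-fold lower were 15 genes in A549 and 6 in SUM159, and 1.88% and 0.721% of all genes reached that size. Not passing were RAD51D and HELQ in A549, and RAD51B, RAD51D, HELQ, ATM and CHEK2 in SUM159. The S-phase markers summed to 634.5 to 636.8 CPM in A549 and 862.1 to 885.9 in SUM159, and those of G2 and mitosis to 500.1 to 521.6 and 687.8 to 694.0; their part was not tested. With scaling by total counts the share of rises among all calls was 57.8% in A549 (47.4% with TMM) and 64.3% in SUM159 (49.3%). The median of all genes in SUM159 shifted by 0.15 (0.11 for palbociclib alone). Of the list, 40 and 37 genes still fell under that scaling, and 1 rose in each line.

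FANCI had the largest fall of the list in each line under the combination. It was at 22.3 and 25.7 CPM in A549 and at 31.4 and 30.2 in SUM159, with log2 changes of -3.43 ± 0.07 and -2.42 ± 0.05. POLQ fell from 72.3 and 80.5 CPM to 7.36 and 9.42 in A549 (-3.19 ± 0.09) and from 43.1 and 48.5 to 11.5 and 10.6 in SUM159 (-2.05). FANCA (8.05 and 9.70 CPM) changed by -3.03 ± 0.08 in A549. EXO1 changed by -2.97 in A549 (8.42 and 7.64 CPM) and by -2.40 in SUM159 (13.9 and 12.2 CPM). In SUM159 RAD51AP1 changed by -2.38 and FANCD2 by -2.22, whereas in A549 FANCD2 changed by -2.79. The smallest falls that passed were those of NBN and CHEK2 in A549, at -0.22 and -0.29, and of SLX4 and NBN in SUM159, at -0.37 and -0.41.

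BRCA1 reached 21.2 and 23.7 CPM in A549 with both drugs and 47.5 and 48.7 in SUM159, with changes of -2.48 and -1.73, and BRCA2 changed by -1.89 and -1.22. Of the kinases, ATR changed by -0.87 and -1.01 and CHEK1 by -0.91 and -0.96. ATM fell in A549 (29.7 and 31.4 CPM, -0.49 ± 0.09) and was at 56.5 and 53.4 CPM in SUM159, where its value of -0.13 ± 0.08 did not pass and rested on the untreated libraries, at -0.25 without replicate 1 (adjusted p = 0.0141, edgeR) and 0.0041 without replicate 2.

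Against palbociclib alone, adding indisulam lowered a further share of the list. In A549 31 genes fell and 2 rose, among 27.8% of all genes that fell and 23.7% that rose, and in SUM159 25 fell and 2 rose, among 24.9% and 23.4%. FANCI, POLQ and FANCD2 had the lowest values in A549, at -1.72, -1.52 and -1.31. In SUM159 the lowest were POLQ at -1.10, FANCD2 at -0.99 and ATR at -0.95. RAD51D was higher with the combination than with palbociclib in both lines, by 0.57 and 0.36, as were SLX4, a nuclease scaffold, in A549 (0.29) and FANCC, a core complex subunit, in SUM159 (0.40).

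Against indisulam alone, adding palbociclib lowered 36 genes in each line and raised none, where 20.1% of all genes fell and 18.6% rose in A549, and 28% fell and 24.9% rose in SUM159. The lowest were EXO1 at -2.88, POLQ at -2.48 and RAD51AP1 at -2.37 in A549, and RAD51AP1 at -2.19, EXO1 at -2.17 and RAD54L at -1.79 in SUM159. The smallest falls were those of MUS81 (-0.28) and PALB2 (-0.37) in A549 and of NBN and SLX4 (-0.24 each) in SUM159, and ATR, at -0.18 and -0.11, did not pass in either line. Under total-count scaling the share of rises among all calls was 61.2% in A549 (48.1% with TMM) and 62.4% in SUM159 (47.1%). Of the list, 35 genes were lower in each line under that scaling, and 1 was higher in SUM159 and none in A549. These comparisons share libraries with those against untreated cells.

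Some genes fell further with both drugs than both single log2 changes added together. The departure from that sum passed the test below 0 for 11 genes in A549 and for 8 in SUM159, and above 0 for none, where among all genes 2.05% passed below and 1.49% above in A549, and 2.16% and 2.22% in SUM159. Of the 26 markers of cycling cells, 13 passed below 0 in A549 (10 of them S-phase markers) and 11 in SUM159 (4 of them S-phase markers), and none above; their part in the departures was not tested. EXO1 departed most in A549: palbociclib gave -1.85, indisulam -0.09 and both -2.97, a departure of -1.03 ± 0.10. POLQ departed by -0.81 ± 0.13 in A549 and by -0.66 ± 0.10, the lowest value, in SUM159. EME1 departed by -0.61 in A549 and -0.57 in SUM159, and BRCA2 by -0.55 in SUM159. The other calls in A549 were BRCA1, RAD51AP1, XRCC2, RAD54L, FANCA, FANCD2, FANCI and RMI2, from -0.61 for RMI2 to -0.39 for FANCD2. Those in SUM159 were RAD51AP1, RAD54L, FANCA, EXO1 and CHEK2, from -0.53 for RAD54L to -0.35 for FANCA.

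The number of departures depended on single libraries. In A549 it was 3 without untreated replicate 1, 5 without untreated replicate 2, 4 and 3 without palbociclib replicates 1 and 2, 2 without either indisulam replicate and 5 without combination replicate 1, and 6 by DESeq2, which put 53.9% of all calls above 0 where edgeR put 42.1%. In SUM159 it was 5 without untreated replicate 2 and 5 without combination replicate 2. EXO1 and POLQ in A549 passed under each of these omissions, whereas EME1 in A549 passed only without palbociclib replicate 2 or combination replicate 2. CHEK2 in SUM159 departed by -0.41: it was at 36.0 and 35.7 CPM with indisulam and at 27.0 and 26.8 with both drugs, near its untreated 27.1 and 26.1.

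**Figure D3:**
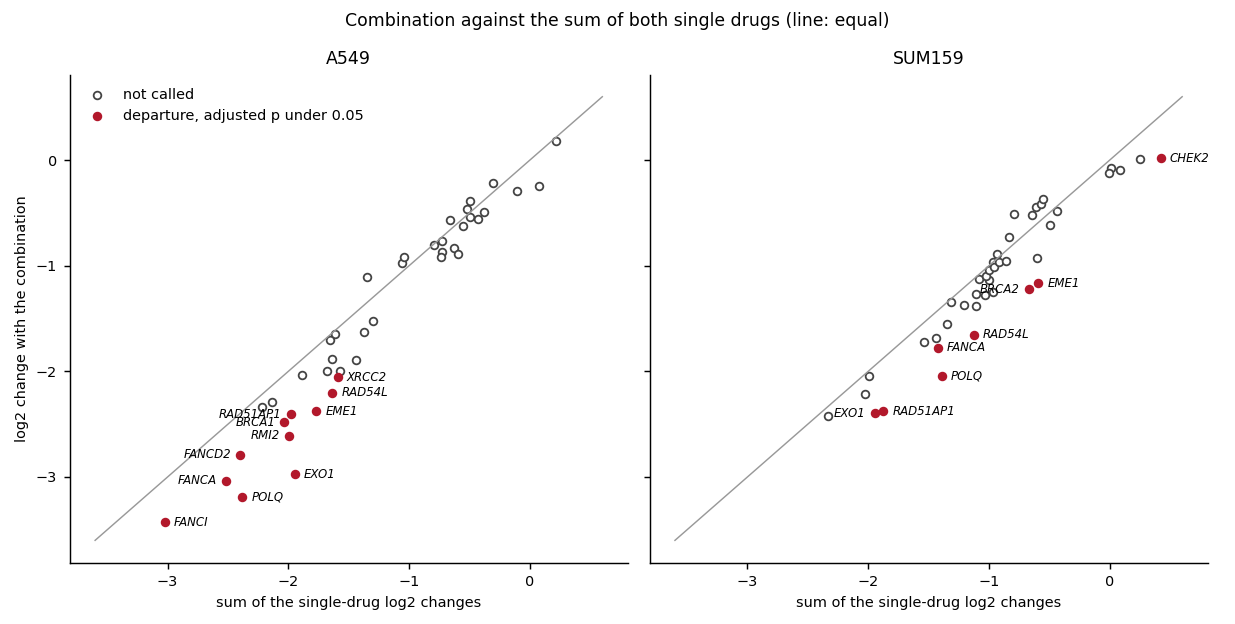
Log2 change with both drugs (y axis) against both single-drug log2 changes added together (x axis) for the 42 genes in A549 and SUM159; the diagonal marks equality and red points are departures with an adjusted p under 0.05. The 11 red points in A549 and the 8 in SUM159 all lie below the diagonal, with EXO1 and POLQ farthest below it in A549.

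The falls were smaller in SUM159 than in A549 for many of these genes. The differences were tested as interactions in 1 fit of all 16 libraries, whose scaling differs from that of the separate fits. For palbociclib 22 genes had a higher (less negative) log2 change in SUM159 and none a lower one, among 9.65% and 3.15% of all genes, with a median difference of 0.32 against 0.08 over all genes. All 12 markers of G2 and mitosis were higher too (median 0.71), and of the 14 S-phase markers 3 were higher and 3 lower; their part was not tested. EME1 and POLQ differed most, by 0.91 ± 0.11 and 0.82 ± 0.11, and RBBP8, FANCI and CHEK2 had the smallest called differences, of 0.30, 0.30 and 0.31. This count was sensitive: 11 were higher without untreated A549 replicate 1, 8 without untreated A549 replicate 2, and 9 without either palbociclib A549 replicate, each with 1 lower, while DESeq2 gave 12 higher and 1 lower. Among all calls, 75.4% were higher here, 61.3% with total-count scaling and 42.2% with DESeq2.

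For indisulam 10 genes were higher in SUM159 and 1 lower, among 8.04% and 6.97% of all genes, and the total of 11 was 7 without SUM159 indisulam replicate 2 and 7 by DESeq2. FANCA differed by 0.57 ± 0.09 and BRIP1 by 0.53 ± 0.08, and FANCM by -0.42 ± 0.10, the only lower one, and the smallest higher one was that of BRCA1, 0.23. FANCM was at 22.9 and 23.5 CPM in untreated A549 and at 22.4 and 23.6 with indisulam, but at 27.7 and 30.6 against 21.9 and 21.2 in SUM159. BRIP1 fell only in A549 (41.4 and 43.7 to 32.0 and 30.8 CPM) and was at 40.6 and 42.2 against 44.3 and 43.5 in SUM159.

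For the combination 25 genes were higher in SUM159 and 1 lower, among 19.1% and 11.8% of all genes. Without untreated A549 replicate 2 the counts were 16 and 4. RMI2 differed most, by 1.64 ± 0.14: it went from 45.7 and 43.6 CPM to 6.81 and 7.83 in A549 and from 11.04 and 11.4 to 5.36 and 5.59 in SUM159, so that levels in the treated lines were closer than in the untreated ones. FANCA differed by 1.32 ± 0.12 and MRE11, the smallest call, by 0.25. RAD54B, a motor protein counted at 1.53 to 5.80 CPM, was the exception at -0.77 ± 0.25, which did not pass without SUM159 untreated replicate 2 or combination replicate 1. Among all calls 61.8% were higher, and 44.7% with DESeq2, which gave 19 higher and 2 lower of the list. The S-phase and mitosis markers, too, were higher in 22 of 26 and lower in 2 for this difference; their part was not tested.

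**Figure D4:**
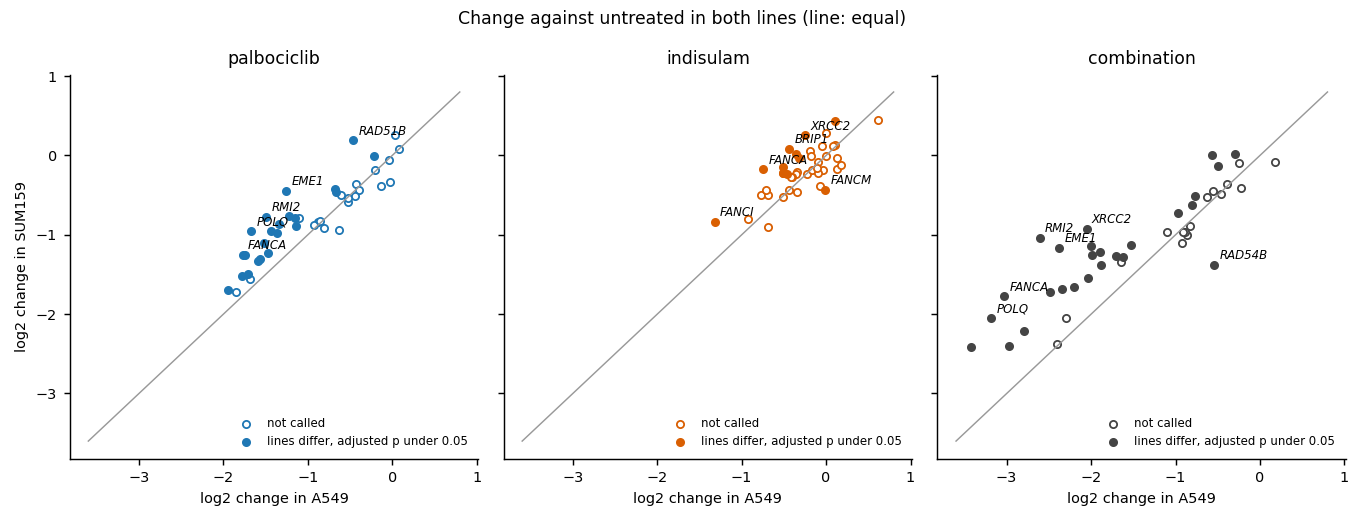
Log2 change against untreated in SUM159 (y axis) against that in A549 (x axis) for the 42 genes with palbociclib, indisulam and the combination; the diagonal marks equality, filled points differ between lines with an adjusted p under 0.05, and the largest differences are named. Most filled points lie above the diagonal; FANCM with indisulam and RAD54B with the combination lie below it.

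The order of the genes was similar in both lines: Spearman's rho across the 42 genes between the A549 and SUM159 changes was 0.91 for palbociclib, 0.66 for indisulam and 0.87 for the combination, given as a description. The remainder of the pathway was read from 50 further genes, such as those of the single-strand binding complex, the deubiquitinase of the clamp and the damage-signalling ligases, of which 49 were tested. With palbociclib 31 fell and 5 rose in A549 (median -0.40) and 33 fell and 5 rose in SUM159 (median -0.38). Over all genes 21.1% fell and 22% rose in A549, and 29% fell and 25.5% rose in SUM159. With indisulam 16 fell and 11 rose in A549, where 25.9% and 23.3% of all genes did, and 20 fell and 9 rose in SUM159, where 24.9% and 21.9% did. With both drugs 32 fell and 6 rose, and 34 fell and 4 rose, with medians of -0.58 and -0.50, where 30.4% of all genes fell and 27.4% rose in A549, and 33.1% and 32.2% in SUM159. Of the 15 genes of non-homologous end joining, which rejoins ends without a template, 13 were tested in A549 and 14 in SUM159. With palbociclib 8 fell and 2 rose in A549 (median -0.33) and 7 fell and 2 rose in SUM159 (median -0.21). With indisulam 4 fell and 5 rose in A549, and 5 fell and 2 rose in SUM159. With both drugs 9 fell and 4 rose, and 8 fell and 2 rose, with medians of -0.29 in each.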

How the data were processed

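What the authors deposited are raw counts per Ensembl gene, 1 table for each library, not normalized or pooled. Per the study's methods, stranded poly(A) libraries were read as 75-base pairs, trimmed with SeqPurge and aligned to GRCh38 with HISAT2 (2.2.1 in the submitters' processing notes, which also name HTSeq). The annotation release and strand setting of the counting are not given in the sources used here, so counts of overlapping genes are uncertain. Rows that name no gene (13.2% to 16.4% of reads) were left out. Symbols and coordinates came from GENCODE 44, which matched 58207 identifiers.

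Counts were tested with edgeR 4.0.16 in R 4.3.3 (filterByExpr, TMM, glmQLFit and glmQLFTest), with 1 coefficient per group, over the 8 libraries of a line or over all 16 for differences between lines, and departures as the combination minus each single drug plus untreated. P-values were adjusted over all genes tested (Benjamini-Hochberg, threshold 0.05), and "rose" and "fell" mean an adjusted p under it. SE came from the log2 change and its F statistic. The fits of each line were run on simulated counts in which a small set of genes was changed in the groups given indisulam. No departure or difference between lines was planted, so their recovery was not tested. Alternatives were DESeq2 1.42.0, total-count scaling, other filters, a replicate block, the compared groups alone and omission of each library. Floors and depth cover counting error only, as reads without molecular identifiers are not single molecules.

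The members and gene lists were chosen with earlier results of these data known. Named against untreated cells were BRCA1, BRCA2, FANCD2, CHEK1, ATM and ATR, the 4 lowest and the 2 highest called changes that agreed in sign between same-numbered libraries and had a mean of at least 1 CPM, and elsewhere the 3 lowest and 2 highest called. Highest was read as the largest rises and lowest as the largest falls, and the smallest called values are given beside them. Other genes stand as examples of their role group.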

Additional observations from a re-analysis of the deposited data

Results flagged for a closer look

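The following differences between lines (SUM159 minus A549, on the log2 scale, interaction in edgeR's fit of all 16 libraries) passed the test. With palbociclib they were 0.58 for BRCA2, 0.37 for BRCA1, 0.91 for EME1, 0.82 for POLQ and 0.35 for FANCD2. With indisulam they were -0.42 for FANCM, 0.57 for FANCA, 0.23 for BRCA1 and 0.53 for BRIP1. With both drugs they were 0.43 for ATM, 0.74 for BRCA2, 1.64 for RMI2, 1.32 for FANCA, 0.83 for BRCA1, 0.64 for FANCD2 and -0.77 for RAD54B. A positive value means that the gene fell less, or rose more, in SUM159.

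Reads in no annotated feature took a mean of 5.84% of reads in A549 with indisulam and 5.25% with both drugs, above both untreated A549 libraries (4.02% and 4.57%). In SUM159 they took 5.21% with palbociclib, 5.89% with indisulam and 6.36% with both, above the untreated libraries (3.89% to 3.99%). What these reads hold was not tested.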

How the results depend on the processing

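The counts of called genes against untreated cells and against each single drug kept their direction and stayed within 1.5 times under DESeq2, total-count scaling, both other filters, the compared groups alone and the omission of any library. Requiring a 2-fold change as well left, in the order palbociclib, indisulam, combination, combination against palbociclib, combination against indisulam and departure, 21, 1, 23, 7, 22 and 1 genes in A549 and 11, 0, 24, 1, 20 and 0 in SUM159. All of these were lower. In the same order, 2.78%, 5.02%, 7.63%, 6.13%, 3.13% and 0.152% of all genes were called at least 2-fold lower in A549. In SUM159 these shares were 2.1%, 1.87%, 4.27%, 2.21%, 2.36% and 0.149%. DESeq2 gave 6 departures in A549, 13 line differences for palbociclib and 7 for indisulam. Leaving out 1 library gave 2 to 8 departures in A549 and 5 to 8 in SUM159, and 9 to 20 line differences for palbociclib, 7 to 10 for indisulam and 20 to 24 for the combination; the cause was not tested.

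Values that changed sign did not pass the test to begin with. With total-count scaling ATR with palbociclib was 0.020 in A549 and 0.048 in SUM159, BRCA2 with indisulam in A549 0.021, CHEK1 with indisulam in SUM159 0.025 and ATM with both drugs in SUM159 0.022. Leaving out 1 library gave -0.14 to 0.21 for ATM and -0.15 to 0.061 for ATR with palbociclib in A549, -0.089 to 0.086 for BRCA2 with indisulam in A549, and -0.25 to 0.0041 for ATM with both drugs in SUM159. Of 423 values of single genes, 48 no longer passed with DESeq2, 20 with total-count scaling, 14 without a filter, 12 with a minimum of 10 counts, 4 of 345 with the compared groups alone and 284 of 2004 over the omissions of 1 library.

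The labels give the groups the same replicate numbers, but same-numbered libraries did not deviate together (correlations from -0.114 to 0.114). With the replicate number as a block the palbociclib counts were 38 in each line, and 5 values no longer passed: CHEK1 with indisulam in A549 (adjusted p = 0.0563), the departures of RAD51AP1 (0.0608) and XRCC2 (0.0554) in A549 and FANCA (0.0633) in SUM159, and XRCC3 for the combination against palbociclib in SUM159 (0.0578), all by edgeR. With the numbers crossed, chosen after seeing the data, the combination against palbociclib gave 33 genes in A549 and 28 in SUM159. Duplicate libraries differed by more than sampling noise (chi-square per degree of freedom 1.59 to 9.13). Genes near 5 CPM or below, such as RAD54B and RAD51B, have the widest errors.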
